A study of Rattus norvegicus with 12 samples.

Results

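The subject is 10 genes that mark macrophages, the phagocytic cells of tissues, in injured and uninjured rat sensory ganglia. They are the complement chains C1qa, C1qb and C1qc, the Fc receptor genes Fcer1g and Fcgr2b, and the phagocyte genes Csf1r, Lcp1, Gpnmb, Cd68 and Cd14. They were chosen by name from a list of macrophage genes, with earlier results of these data known. They are 10 of the 10411 genes with a probe set of their own name in the deposited table. Each had 1 probe set annotated to that gene alone, so no choice between such probe sets arose. Probe sets annotated to several genes were set aside and not searched for these 10. RNA came from the L4/L5 dorsal root ganglia, which hold the cell bodies of the sensory neurons, of adult male Sprague Dawley rats, and was hybridised to 12 Affymetrix arrays. The groups, with 3 arrays each, were Low Pain (LP) rats 3 days after spinal nerve ligation (LP SNL), LP rats after a sham operation (LP sham), High Pain (HP) rats 3 days after ligation (HP SNL) and HP rats after a sham operation (HP sham). LP and HP are genetic sub-lines of the same strain. In the SNL groups the spinal nerves at L4 and L5 were tied, an injury used as a rat model of neuropathic pain, and in the sham groups no nerve was damaged. The labels give no time for the sham groups and do not say whether a replicate is 1 animal or a pool, so the p-values reflect the spread among these arrays alone, and that spread may be technical.

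Macrophages live in uninjured ganglia, and after a peripheral nerve is cut or tied they become more numerous around the cell bodies of the injured neurons, by division and by entry of monocytes from the blood. C1q is the recognition part of the first complement component, and it tags debris and synapses for uptake. It is built from A, B and C chains, and in most tissues macrophages are its main source. Fc receptors bind the constant part of antibodies: Fcer1g encodes the signalling gamma chain shared by activating receptors, and Fcgr2b the inhibitory receptor for IgG. Csf1r encodes the receptor for the growth factors CSF1 and IL-34 on which macrophages depend for survival, Lcp1 encodes the leukocyte actin-bundling protein L-plastin, Gpnmb a glycoprotein of the lysosome and cell surface, Cd68 a lysosomal membrane protein and Cd14 a co-receptor for bacterial lipopolysaccharide.

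Every one of the 10 genes was higher after ligation in both lines. Signals are the authors' scaled linear values, and log2 differences, ± SE, are differences of group means of log2(signal + 1) from a limma fit of all 12 arrays, with Benjamini-Hochberg adjustment over 10411 genes and a threshold of 0.05. All 10 rose in LP and all 10 rose in HP, where 7.66% and 7.02% of all genes tested were called higher. None of the 10 fell, where 6.79% and 6.61% of all genes were called lower. Because the 10 were chosen with earlier results known, these counts are a description and no independent test. The median log2 difference of the 10 was 1.38 in LP and 1.38 in HP, against 0.02 and -0.001 over all genes tested. In both lines the 3 SNL arrays lay above the 3 sham arrays for all 10 genes, a pattern held by 16.5% of all genes in LP and 17.2% in HP (the opposite pattern by 14.7% and 17.1%). The ganglia were measured in bulk, in which more or fewer cells of a type and more or less RNA per cell cannot be told apart.

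**Figure D1:**
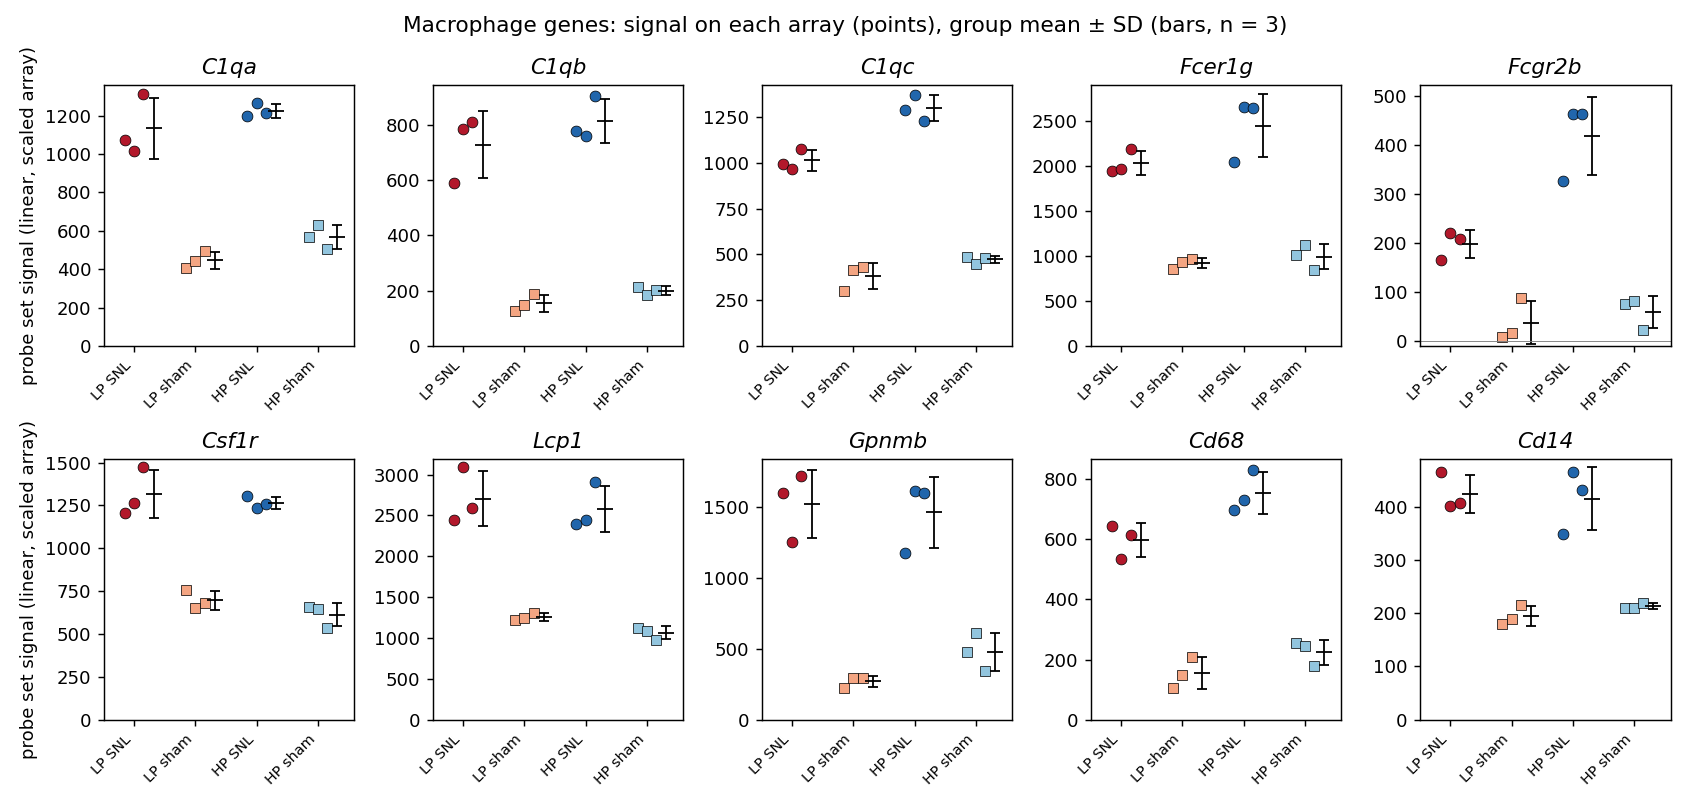
Probe set signal of the 10 macrophage genes on each of the 12 arrays (linear scale; circles SNL, squares sham; points within a group are replicates 1 to 3 from left to right), with the group mean ± SD (n = 3) beside the points. In every panel the 3 SNL arrays of a line lie above its 3 sham arrays, and Fcgr2b has the lowest sham signals, down to 8.5 in LP sham.

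Of the 3 chains of C1q, C1qb had the largest rise. C1qb had signals of 589.5, 783.3 and 809.7 in LP SNL ganglia, against 127.8, 146.2 and 188.2 in LP sham ganglia. In HP it had 775.3, 757.9 and 904.5 after SNL and 212.8, 182.4 and 203.2 after sham. The lowest SNL array thus lay well above the highest sham array in each line, and the log2 difference was 2.24 ± 0.17 in LP and 2.02 ± 0.17 in HP (limma adjusted p = 7.2e-05 and 0.00014). C1qa, the A chain, had 1074.2, 1014.1 and 1314.3 in LP SNL and 403.8, 441.3 and 492 in LP sham. In HP its signals were 1197.2, 1267.3 and 1214.4 after SNL, against 567.1, 631.1 and 503.7 after sham. The groups did not overlap, and C1qa rose by log2 1.34 ± 0.13 in LP and 1.12 ± 0.13 in HP (limma adjusted p = 0.00016 and 0.000565). C1qc, the C chain, had 993.4, 969.2 and 1078 in LP SNL, against 302.4, 412.1 and 433 in LP sham. The HP values of C1qc were 1287.8, 1373.1 and 1231.8 after SNL and 486.7, 447.7 and 482.6 after sham. C1qc rose by 1.42 ± 0.13 in LP and 1.46 ± 0.13 in HP (limma adjusted p = 0.000155 and 0.000188), with HP SNL the highest group and no overlap between surgeries.

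The chains can also be set against each other array by array, which shows the spread behind the unequal rises; the mean gains are by arithmetic the differences of the rises above and add no independent evidence. The log2 signal of C1qb minus that of C1qa lay between -0.86 and -0.37 in LP SNL and between -1.65 and -1.38 in LP sham, and between -0.74 and -0.42 in HP SNL and between -1.79 and -1.31 in HP sham. On this measure every SNL array lay above every sham array, by 0.90 on average in either line. Against C1qc, C1qb gained 0.82 in LP and 0.56 in HP, again without overlap between SNL and sham. C1qc against C1qa gained 0.08 in LP, where the groups overlapped, and 0.34 in HP, where they did not. These within-array values are a description, with no test. In the RefSeq gene table (assembly GRCr8) the genes C1qb, C1qc and C1qa stand next to each other in this order on chromosome 5, with no other protein-coding gene between them.

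Both Fc receptor genes rose, with very different precision. Fcer1g had 1950.9, 1974.2 and 2189.1 in LP SNL, against 860.2, 935.2 and 971.4 in LP sham. In HP it had 2042.8, 2661 and 2653.4 after SNL and 1008, 1125.5 and 848.3 after sham. Its log2 difference was 1.14 ± 0.14 in LP and 1.30 ± 0.14 in HP (limma adjusted p = 0.000535 and 0.00039), and the 2 surgeries did not overlap in either line. Fcgr2b had 165.8, 221 and 208.6 in LP SNL, against 8.5, 16.1 and 87.6 in LP sham. The HP signals of Fcgr2b were 326.1, 463.5 and 463.4 after SNL and 76.2, 81.5 and 22.7 after sham. The sham arrays were scattered, all 6 below the 25th percentile of their own array and LP sham replicates 1 and 2 below the 5th. LP SNL replicate 1 was also below the 25th. The log2 difference of Fcgr2b was 3.02 ± 0.73 in LP and 2.96 ± 0.73 in HP (limma adjusted p = 0.0197 and 0.0241), and it became 1.90 and 2.34 when 32 rather than 1 was added to each signal. The call of Fcgr2b was lost in LP without LP sham replicate 1 (2.35, adjusted p = 0.062), LP sham replicate 2 (2.77, 0.0679), LP SNL replicate 2 (2.94, 0.0574) or LP SNL replicate 3 (2.98, 0.0623), in a range of 0.00155 to 0.0746 over all alternatives in LP. In HP it was lost without HP sham replicate 3 (2.37, 0.0854), HP SNL replicate 2 (2.87, 0.0726) or HP SNL replicate 3 (2.87, 0.0736), and with an RNA quality covariate (1.71, 0.156), in a range of 0.00245 to 0.156. The Fc gamma receptor genes are close relatives of each other, and Fcgr3a follows Fcgr2b directly in the RefSeq table. Probe sequences were not used here, so cross-hybridisation between them was not tested.

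The other 5 genes serve phagocyte growth, shape, digestion and, for Cd14, the sensing of lipopolysaccharide. Gpnmb had 1598.6, 1254.1 and 1714.9 in LP SNL, against 224.6, 292.5 and 290.5 in LP sham. In HP its signals were 1173.4, 1614.2 and 1595.3 after SNL and 480, 612.2 and 342.7 after sham. Gpnmb rose by 2.49 ± 0.23 in LP and 1.63 ± 0.23 in HP (limma adjusted p = 0.000134 and 0.00143), with similar SNL levels in the lines and the lowest levels in LP sham. Cd68 had 643.7, 535.9 and 614.6 in LP SNL and 103.6, 148.7 and 209.9 in LP sham. In HP it had 699.2, 731.7 and 831.8 after SNL, against 253.5, 243.4 and 177.2 after sham. Its groups did not overlap, and it rose by 2.00 ± 0.23 in LP and 1.76 ± 0.23 in HP (limma adjusted p = 0.000437 and 0.00111). C1qb and Cd68 were below the 25th percentile of the array on LP sham replicates 1 and 2.

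The smallest rises of these 5 were those of Lcp1, Cd14 and Csf1r. Lcp1 had 2441.3, 3089.3 and 2588.1 in LP SNL, against 1215.4, 1240.2 and 1308.7 in LP sham, and 2393, 2447.4 and 2908.4 in HP SNL, against 1125.9, 1091.1 and 976.6 in HP sham. All 6 SNL arrays lay above all 6 sham arrays, with log2 differences of 1.10 ± 0.12 in LP and 1.28 ± 0.12 in HP (limma adjusted p = 0.000272 and 0.000212). Cd14 had 464.9, 400.3 and 406.3 in LP SNL and 179, 188.4 and 215.7 in LP sham, and 348.7, 465.1 and 431.1 in HP SNL and 208.9, 209.9 and 219.3 in HP sham. Cd14 rose by 1.12 ± 0.12 in LP and 0.95 ± 0.12 in HP (limma adjusted p = 0.000338 and 0.00104). Csf1r had 1206.5, 1265.5 and 1475.5 in LP SNL, against 757.7, 651.5 and 678 in LP sham, and 1305.6, 1234.8 and 1255.4 in HP SNL, against 656.5, 647.1 and 534.4 in HP sham. Csf1r rose by 0.92 ± 0.12 in LP and 1.05 ± 0.12 in HP (limma adjusted p = 0.000708 and 0.000471), and in the mean of both lines its difference, 0.98 ± 0.08, was the smallest of the 10.

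The same array-by-array description was made of the lysosomal genes against the growth factor receptor, again restating the differences of the rises above. The log2 signal of Cd68 minus that of Csf1r was higher after SNL than after sham by 1.09 in LP and 0.71 in HP, with no overlap between the surgeries. For Gpnmb minus Csf1r the gain was 1.58 in LP, without overlap, and 0.58 in HP, where the SNL arrays (-0.15 to 0.39) and the sham arrays (-0.64 to -0.08) overlapped. Averaged over the lines, the log2 differences after ligation ran from 2.99 ± 0.51 for Fcgr2b through C1qb (2.13 ± 0.12), Gpnmb (2.06 ± 0.16), Cd68 (1.88 ± 0.16), C1qc (1.44 ± 0.09), C1qa (1.23 ± 0.09), Fcer1g (1.22 ± 0.10), Lcp1 (1.19 ± 0.08) and Cd14 (1.04 ± 0.09) to Csf1r. In this averaged contrast 13% of all genes were called higher. The 95% interval of each gene overlapped that of the next in the order, while the interval of C1qb (1.87 to 2.39) lay above that of C1qc (1.23 to 1.64) and that of Cd68 (1.51 to 2.25) above that of C1qa (1.03 to 1.43). By group, the C1q chains had a median of 1.44 and the phagocyte genes 1.19. No median is given for the pair of Fc receptor genes, since Fcer1g stood at 1.22 and Fcgr2b, dim on every sham array, had 2.12 with 32 added to each signal and 2.09 with the actin covariate.

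**Figure D2:**
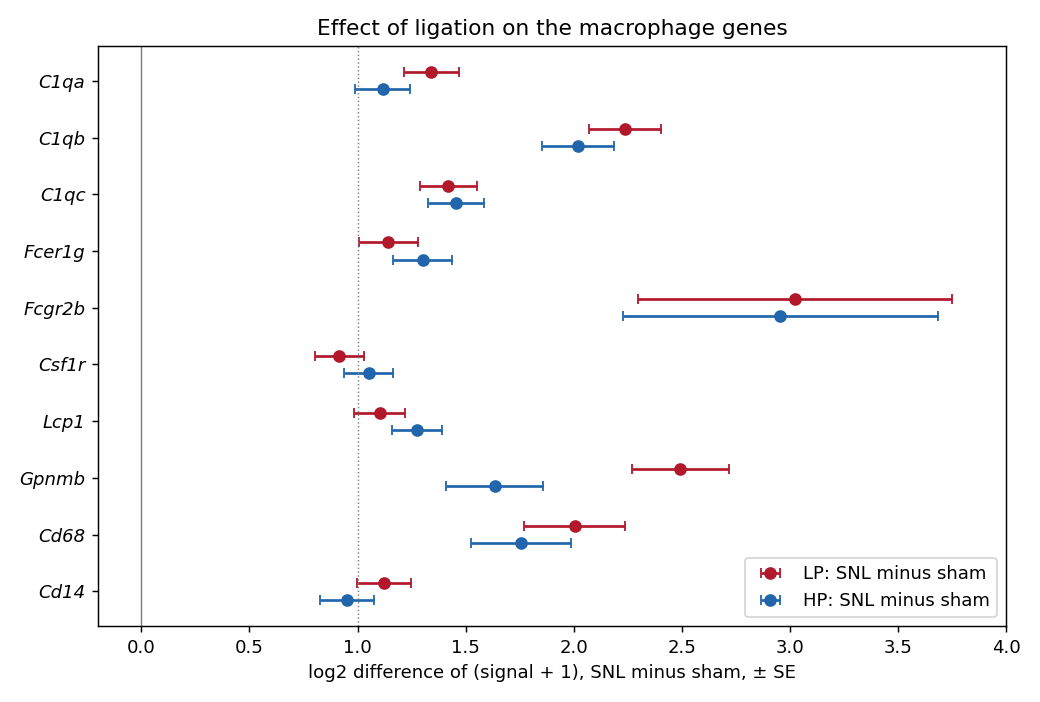
Log2 difference between SNL and sham for each macrophage gene in LP (red) and HP (blue), ± SE from the limma fit; the dotted line marks a log2 difference of 1. All 20 points lie above 0, from 0.92 for Csf1r in LP to 3.02 for Fcgr2b in LP, whose SE of 0.73 is the widest.

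Since the genes rose together, promoters are shown for the chains with the largest and smallest rise and for Cd68. RefSeq promoter windows (build GRCr8, 250 bases before to 50 after a start) were held for 6 of the 10 genes. The 3 shown, all on the minus strand, were C1qb at chr5:154407778-154408077, C1qa at chr5:154419884-154420183 and Cd68 at chr10:54882392-54882691. The windows of Csf1r (chr18:56834129-56834428) and Cd14 (chr18:28611109-28611408) were set at a start inside the gene. These genes are listed at chr18:56834152-56860804 and chr18:28609558-28611409. Capitals mark GAGGAA on either strand (TTCCTC on the other), the core bound by PU.1, the ETS family factor of myeloid cells.
C1qb: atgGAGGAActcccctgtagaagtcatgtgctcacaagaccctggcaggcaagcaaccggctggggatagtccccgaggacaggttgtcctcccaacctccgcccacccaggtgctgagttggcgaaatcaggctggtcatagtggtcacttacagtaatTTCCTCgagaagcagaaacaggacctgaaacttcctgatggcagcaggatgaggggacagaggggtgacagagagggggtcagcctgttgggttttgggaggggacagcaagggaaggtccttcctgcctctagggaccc
C1qa: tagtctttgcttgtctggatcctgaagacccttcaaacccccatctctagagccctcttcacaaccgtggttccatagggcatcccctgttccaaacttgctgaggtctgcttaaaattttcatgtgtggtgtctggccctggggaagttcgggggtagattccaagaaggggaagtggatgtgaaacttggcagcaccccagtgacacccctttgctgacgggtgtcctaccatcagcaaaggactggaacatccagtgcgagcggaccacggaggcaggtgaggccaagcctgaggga
Cd68: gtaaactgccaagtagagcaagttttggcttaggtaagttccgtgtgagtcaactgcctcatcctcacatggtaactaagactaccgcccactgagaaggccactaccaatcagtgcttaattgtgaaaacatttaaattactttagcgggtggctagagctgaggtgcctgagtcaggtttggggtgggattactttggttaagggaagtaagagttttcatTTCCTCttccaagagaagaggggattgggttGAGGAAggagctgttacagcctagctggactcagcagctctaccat
GAGGAA occurred in 5 of the 6 windows (C1qb, Csf1r, Gpnmb, Cd68 and Cd14) and in 27.5% of the 27457 RefSeq promoter windows. In C1qb the matches began 247 and 90 bases before the start, and in Cd68 27 bases before it and at base 5 after it. The C1qa window held none. The longer GAGGAAGT, which contains GAGGAA, was in 0 of the 6 windows and 2.4% of all. TGANTCA, the AP-1 motif, which contains neither, was in 2 of the 6, Gpnmb and Cd68, and in 7.3% of all. Matches are letters in a window and were not tested as binding sites, and Spi1, the gene of PU.1, has no value here.

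The next comparison set the LP line against the HP line under each surgery. After ligation 0 of the 10 genes passed between LP and HP (limma, against 0.173% of all genes, 0.0864% higher and 0.0864% lower), and 1 had an unadjusted p under 0.05, where 10.7% of all genes did. That gene was C1qc, at a mean signal of 1014 ± 57.1 in LP SNL and 1298 ± 71.2 in HP SNL (SD, n = 3), a log2 difference of -0.36 ± 0.13 (adjusted p = 0.374). After sham 0 of the 10 passed again (0.00961% of all genes did), but 5 had an unadjusted p under 0.05, where 9.76% of all genes did, and 8 of the 10 differences were below 0. The 5 were C1qa (-0.35 ± 0.13), C1qb (-0.39 ± 0.17), C1qc (-0.32 ± 0.13), Cd68 (-0.58 ± 0.23) and Gpnmb (-0.80 ± 0.23), all with the lower mean in LP sham and adjusted p between 0.348 and 0.495. The genes share arrays, and LP sham replicate 1 was the lowest of its group for 9 of the 10. The counts are therefore not of separate observations. Without that array the median difference of the 10 after sham was -0.21, against -0.33 with it.

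Individual arrays show how far the lines separated. After sham, all 3 LP arrays lay below all 3 HP arrays for C1qa, C1qc and Gpnmb (7.4% of all genes did so), and above them for Lcp1 (8.19% of all genes). After ligation all 3 LP arrays lay below the HP arrays for C1qc, Fcgr2b and Cd68 (8.33% of all genes), and above them for none of the 10 (9.1% of all genes). Fcgr2b averaged 198.5 ± 29.0 in LP SNL and 417.7 ± 79.3 in HP SNL (SD, n = 3), but its log2 difference, -1.06 ± 0.73, has an interval from -2.68 to 0.56. Cd68 averaged 598.1 ± 55.8 in LP SNL and 754.2 ± 69.1 in HP SNL, a log2 difference of -0.33 ± 0.23 with an interval from -0.85 to 0.18. For Csf1r, Lcp1, Gpnmb and Cd14 the differences after ligation lay between 0.04 and 0.07. Their intervals reached from -0.20 to 0.33 for Lcp1 and from -0.44 to 0.56 for Gpnmb, and differences inside those intervals were not detectable with 3 arrays a group.

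**Figure D3:**
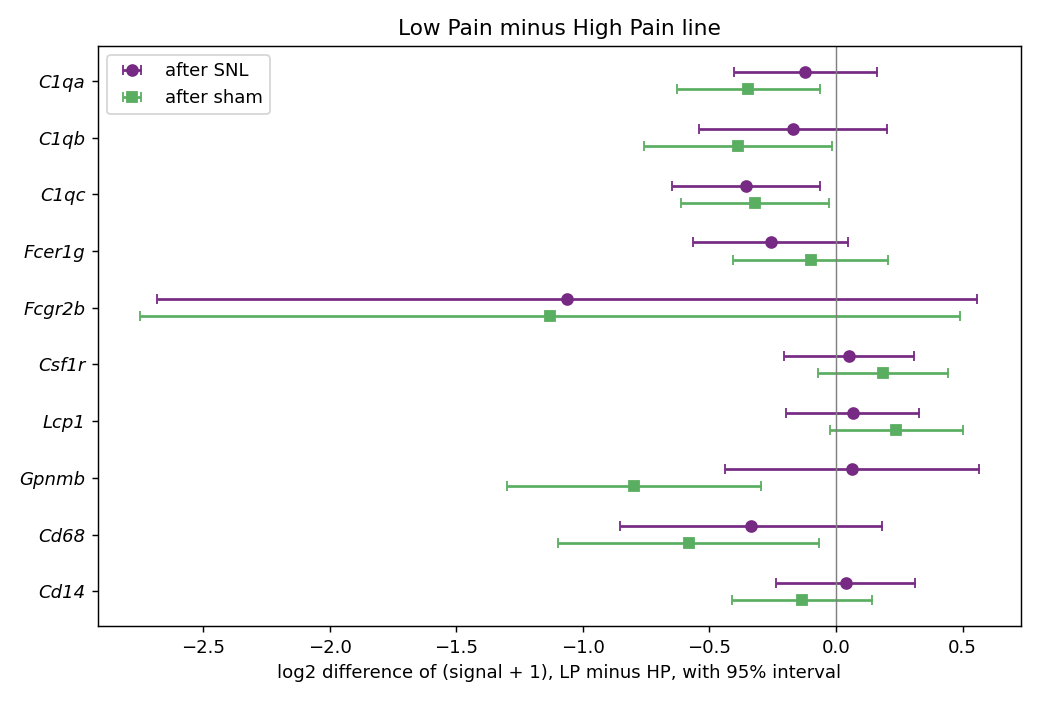
Log2 difference between LP and HP for each macrophage gene after SNL (circles) and after sham (squares), with the 95% interval from the limma fit. Gpnmb stands at 0.06 after SNL and -0.80 after sham, C1qc is below 0 under both surgeries, and none of the 20 points passed the adjusted threshold.

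Among the 10 genes, Gpnmb had the largest difference between the lines in the response to ligation. Its log2 rise in LP exceeded that in HP by 0.86 ± 0.32 (interval 0.15 to 1.57; limma unadjusted p = 0.0222, adjusted p = 0.988). None of the 10 genes passed this interaction test (0% of all genes did, by limma), and Gpnmb was the 1 of the 10 with an unadjusted p under 0.05, as were 4.71% of all genes. The other 9 interactions lay between -0.17 and 0.25. With Fcgr2b left aside, whose interval ran from -2.22 to 2.36, the widest of their intervals was that of Cd68, from -0.48 to 0.98.

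Array order within the groups and signs of RNA integrity were set beside these values. In LP sham, replicate 1 was the lowest array for 9 of the 10 genes and replicate 3 the highest for 8, while replicate 3 in HP sham and replicate 1 in HP SNL were each the lowest for 7. The ratio of the 3' to the 5' beta-actin probe set, a sign of RNA integrity, was 1.877, 1.154 and 0.993 in LP sham replicates 1, 2 and 3, against 1.847, 1.483 and 1.772 in HP sham. After SNL it was 1.125, 1.113 and 1.124 in LP and 1.237, 1.342 and 1.118 in HP, so that in HP the ratio did not overlap between surgeries. The same ratio for Gapdh did overlap in HP, at 1.244, 1.066 and 1.211 after SNL and 1.12, 1.17 and 1.095 after sham, and in LP it was 1.09, 1.183 and 1.084 after SNL and 1.056, 1.095 and 1.092 after sham. Over the 10 genes, LP sham replicates 1, 2 and 3 (actin ratios 1.877, 1.154 and 0.993) deviated from their group's mean by -0.295, -0.044 and 0.339 log2 units. HP sham replicates 1, 2 and 3 (1.847, 1.483 and 1.772) deviated by 0.111, 0.141 and -0.252. In HP SNL (1.237, 1.342 and 1.118) the deviations were -0.14, 0.052 and 0.088. These means include the dim Fcgr2b, at log2 3.25 on LP sham replicate 1 (group mean 4.60) and 4.57 on HP sham replicate 3 (group mean 5.735). In LP sham the deviation thus rose as the ratio fell, while neither HP group held such an order over its 3 arrays. A link between ratio and signal was not tested. With the actin ratio as a covariate 10 genes still rose in LP and 9 in HP, all but Fcgr2b. Under the same covariate the LP minus HP difference after sham was -1.01 for Gpnmb and -0.95 for Cd68 (limma adjusted p = 0.153 and 0.115). Without LP sham replicate 1 the LP minus HP difference after sham was -0.67 for Gpnmb, -0.33 for Cd68 and -0.16 for C1qc.

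Genes that work with these 10 were counted pathway by pathway. These lists were chosen with earlier results of the data known, and their counts are set against 7.66% of genes called higher in LP and 7.02% in HP. Among partners and receptors of C1q, 5 of 7 measured genes rose in LP and 4 in HP. The proteases that C1q activates, C1r and C1s, rose by 1.14 ± 0.17 and 1.14 ± 0.19 in LP and by 0.93 ± 0.17 and 1.21 ± 0.19 in HP. Lrp1, an endocytic receptor, rose by 0.45 ± 0.09 in LP and 0.35 ± 0.09 in HP, and Serping1, the inhibitor of C1r and C1s, by 1.27 in LP and 0.91 in HP (added after its values were seen). In Fc receptor signalling 2 of 12 genes rose in LP and 1 in HP, with a list median of 0.17 and 0.22. Fcgr3a, an activating Fc gamma receptor, rose by 0.49 ± 0.11 in LP and 0.41 ± 0.11 in HP. Vav1, an exchange factor downstream of such receptors, rose by 0.68 ± 0.16 in LP and had 0.38 ± 0.16 in HP (limma adjusted p = 0.16). Lcp2, an adaptor, had 1.19 ± 0.42 and 0.85 ± 0.42 and passed in neither; its dimmer probe set had 1.07 in LP and 1.74 in HP (limma adjusted p over all probe sets = 0.225 and 0.0549). Vav1 and the brighter Lcp2 probe set were below the 25th percentile of every array.

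The growth factor pathway of Csf1r and the lipopolysaccharide pathway of Cd14 were counted next. Of 7 genes of CSF1 receptor signalling and myeloid transcription, 3 rose in LP and 2 in HP. Irf8, a myeloid transcription factor, rose by 0.71 ± 0.12 in LP and 0.50 ± 0.12 in HP, and the phosphatase gene Ptpn6 by 1.06 ± 0.30 and 1.20 ± 0.30. Csf1 itself, the ligand, had 0.39 ± 0.16 in LP and 0.36 ± 0.16 in HP (limma adjusted p = 0.149 and 0.194). Of 9 genes of CD14 and Toll-like receptor signalling, 2 rose in LP and 1 in HP. Lbp, whose product hands lipopolysaccharide to CD14, averaged 556.5 ± 129 in LP SNL and 128.7 ± 14.5 in LP sham, and 357.7 ± 89.7 in HP SNL and 137.4 ± 39.0 in HP sham (SD, n = 3). Lbp rose by 2.08 ± 0.26 in LP and 1.38 ± 0.26 in HP. The receptor kinase gene Irak1 rose by 0.48 ± 0.10 in LP, with 0.30 ± 0.10 in HP (adjusted p = 0.0697), and Rela, a subunit of NF-kappa B, had 0.25 ± 0.13 and 0.41 ± 0.13 and passed in neither.

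Lysosomal, cytoskeletal and further macrophage genes divided in their response. Of 14 lysosome and phagosome genes, 5 rose and 1 fell in LP, and 6 rose and 1 fell in HP. The cysteine protease gene Ctss rose by 1.05 ± 0.16 in LP and 1.03 ± 0.16 in HP, progranulin, Grn, by 0.80 ± 0.13 and 0.88 ± 0.13, and the lectin gene Lgals3 by 0.58 ± 0.11 and 0.67 ± 0.11. The faller was Lipa, the lysosomal acid lipase (-0.42 in LP and -0.65 in HP), named after its values were seen. Of 7 leukocyte actin and integrin genes, 4 rose in LP and 5 in HP, with list medians of 1.22 and 1.08. Arpc1b, a subunit of the actin-nucleating complex, rose by 1.24 ± 0.13 and 1.15 ± 0.13, the GTPase gene Rac2 by 1.24 ± 0.16 and 0.94 ± 0.16, and Capg, an actin-capping protein, by 0.95 ± 0.17 and 0.77 ± 0.17.

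Of 21 other macrophage and monocyte markers, 9 rose in LP and 10 in HP, with medians of 0.53 and 0.66. Mpeg1, which encodes the phagocyte pore-forming protein perforin-2, rose by 1.04 ± 0.10 in LP and 1.25 ± 0.10 in HP, lysozyme, Lyz2, by 1.18 ± 0.15 and 0.99 ± 0.15, and arginase, Arg1, by 1.84 ± 0.25 and 2.25 ± 0.25. Mpeg1 had a dimmer probe set, at a mean signal of 57.8, with 0.65 in LP and 0.78 in HP, not past the threshold. The leukocyte gene Ptprc, which encodes CD45, rose by 1.21 ± 0.18 and 0.94 ± 0.18, and its dimmer probe set had 0.92 and 1.03, not past the threshold. Itgam, the integrin alpha chain CD11b, listed with the actin and integrin genes, had 1.49 ± 0.60 and 1.08 ± 0.60 and passed in neither line (limma adjusted p = 0.135 and 0.289). Cx3cr1, the fractalkine receptor of resident macrophages, rose by 0.51 ± 0.13 in HP and had 0.18 ± 0.13 in LP (adjusted p = 0.427). The probe sets of Aif1, which encodes IBA1, disagreed. The brighter one had 0.10 ± 0.26 in LP and 0.03 ± 0.26 in HP, and the dimmer one 1.67 ± 0.16 and 1.20 ± 0.16 (limma adjusted p over all probe sets = 0.000242 and 0.00165). Cd163 and Mrc1 have no value here.

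Markers of other cells give the setting of the rise. Sensory neuron genes were bright throughout, with none of 11 below the 25th percentile on all 12 arrays, and 4 fell in LP and 3 in HP. Scn10a fell by 1.85 in LP and fell by 1.30 in HP, Avil fell by 1.02 and fell by 0.91, and Calca fell by 0.72 and fell by 0.40. Of the 3 probe sets of Calca, the next brightest had -1.07 in LP and -0.80 in HP (limma adjusted p over all probe sets = 0.000549 and 0.00322). The dimmest, at a mean signal of 68.8, had -0.25 and 0.34. The summed signal of the 11 was 53040 to 58640 in LP SNL and 65570 to 70930 in LP sham, and 58800 to 62840 in HP SNL and 67280 to 71720 in HP sham. Of 8 fibroblast markers, 5 rose in each line, among them Col1a2 (0.56 ± 0.12 in LP and 0.53 ± 0.12 in HP), Pdgfra (1.04 ± 0.20 and 0.77 ± 0.20) and, in LP, Lum (0.94 ± 0.15). Their sum was 25690 to 33490 in LP SNL, against 19850 to 22570 in LP sham, and 29060 to 31200 in HP SNL, against 20380 to 22390 in HP sham. Of 6 endothelial markers 2 rose in LP and 3 in HP, including Tie1 (0.64 ± 0.11 and 0.71 ± 0.11) and Esam (0.71 ± 0.15 and 0.57 ± 0.15), and Vwf rose by 0.77 ± 0.22 in HP. The endothelial sum was 2376 to 2541 in LP SNL and 1577 to 1814 in LP sham, and 2156 to 2442 in HP SNL and 1545 to 1643 in HP sham. Of 9 Schwann cell and satellite glia markers, Sox10 (0.36 ± 0.09 and 0.40 ± 0.09) and Glul (0.47 ± 0.12 and 0.62 ± 0.12) rose in both lines, and Fabp7 had -0.60 ± 0.19 and -0.55 ± 0.19. Their sum was 34310 to 35170 in LP SNL and 33740 to 39180 in LP sham, and 37830 to 39340 in HP SNL and 31840 to 36030 in HP sham.

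Other leukocytes share some of the 10 genes. Of 6 measured neutrophil markers, 1 rose in each line, Lcn2 (0.78 ± 0.15 in LP and 0.68 ± 0.15 in HP), while S100a8 had 0.65 ± 0.95 and 0.75 ± 0.95 and Np4 1.04 ± 0.56 and 0.34 ± 0.56. The neutrophil sum was 638.8 to 1023 in LP SNL, against 601.6 to 624.2 in LP sham, and 909.7 to 1537 in HP SNL, against 550.6 to 1179 in HP sham. Of 10 T cell markers 0 passed in LP or HP by limma (1 and 1 had an unadjusted p under 0.05), and 5 were below the 25th percentile of every array. The receptor chain gene Cd3d had -0.80 ± 0.50 in LP and -1.01 ± 0.50 in HP, Cd2 had 0.57 ± 0.37 and 0.46 ± 0.37, and Cd4, which rat macrophages also carry, had 0.47 ± 0.15 and 0.42 ± 0.15. The T cell sum was 1895 to 2311 in LP SNL and 1705 to 1889 in LP sham, and 1805 to 1977 in HP SNL and 1602 to 1901 in HP sham. The 1 measured B cell marker, Cd79b, was below that percentile on every array, at 11 to 38.5 in LP SNL and 22.9 to 126.8 in LP sham, and 21.8 to 134.1 in HP SNL and 25.1 to 101.3 in HP sham. Of 8 mast cell markers, Hdc rose (1.25 ± 0.28) and Kit fell (-0.55 ± 0.13) in HP, and 0 passed in LP by limma (2 had an unadjusted p under 0.05), where Hdc had 0.86 ± 0.28 and Kit -0.39 ± 0.13. Gata2 had -0.10 ± 0.18 in LP and 0.33 ± 0.18 in HP. The mast cell sum was 1165 to 1930 in LP SNL and 1170 to 1819 in LP sham, and 1316 to 1733 in HP SNL and 1277 to 1638 in HP sham. No marker of these lists had a signal of 0 on any array, and the part of these cells in the rise of the 10 genes was not tested.

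**Figure D4:**
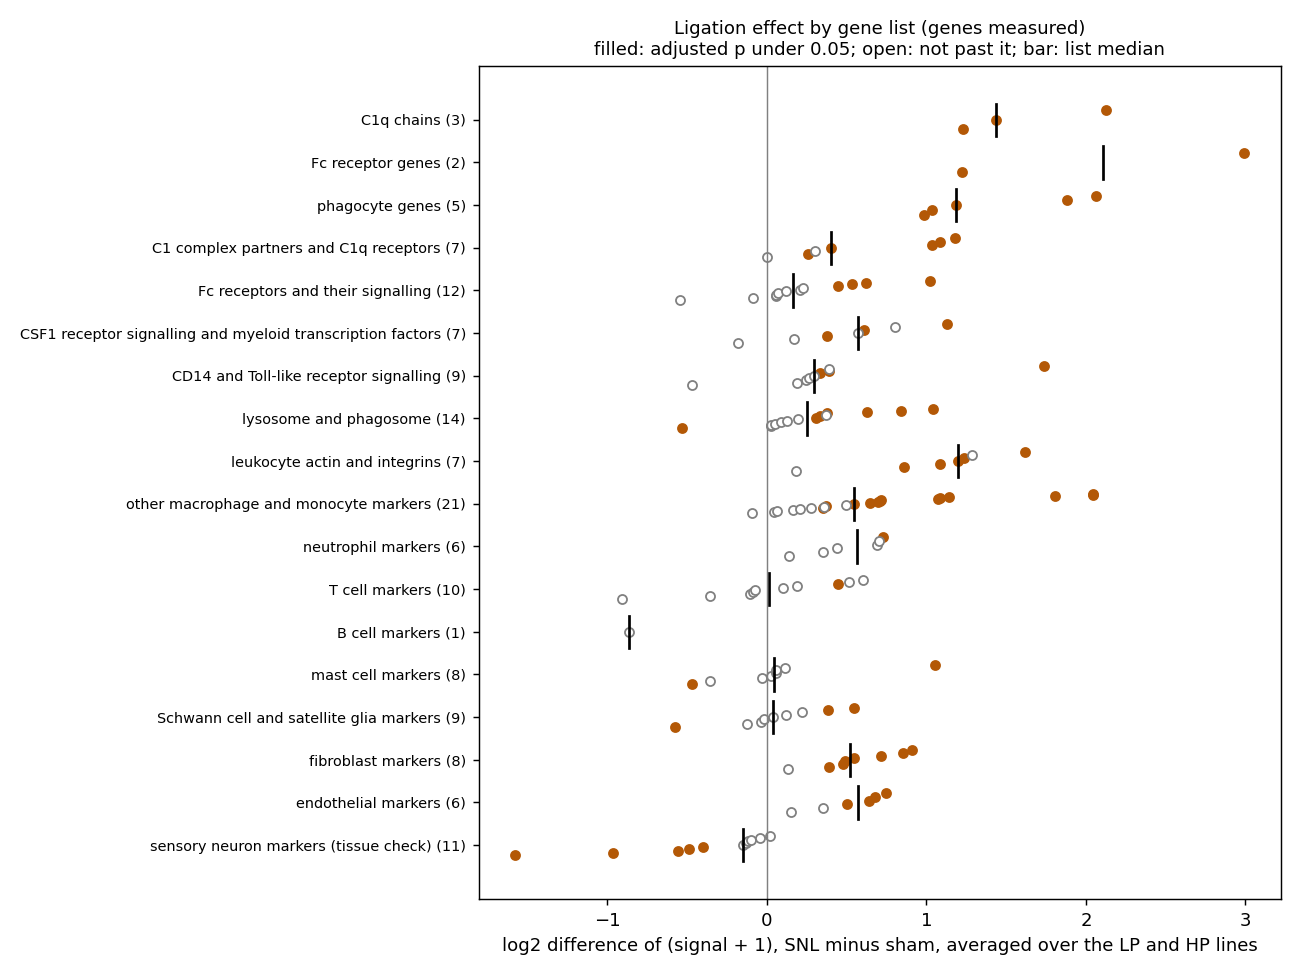
Log2 difference between SNL and sham, averaged over the lines, for each measured gene of each list (number of genes in brackets; filled points passed the adjusted threshold in this averaged contrast, open points did not; bars are list medians). The first 3 rows hold the 10 macrophage genes, all filled, while the row of T cell markers is centred near 0 and 5 of 11 sensory neuron markers lie to the left as filled points.

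The genes whose pattern over the 12 arrays was most like the mean of the 10 macrophage genes were then sought over all genes. Likeness was the root mean square difference between log2 profiles, each centred on its own mean, and a smaller value means a closer pattern. The 6 closest outside the 10 were Ybx3 (0.192 log2 units), Kiaa1671 (0.197), Timp1 (0.204), Gfap (0.234), Ankrd1 (0.243) and Hrct1 (0.247). None of the 6 was on the lists above. Gfap, absent from the list of Schwann cell and satellite glia markers, had a log2 difference of 1.541 in LP and 1.675 in HP. Each of the 10 is part of the mean it is set against, which draws it closer, so its value is not comparable with those of outside genes. Among the 10 themselves C1qc was closest to the mean at 0.172, Cd68 stood at 0.198 and C1qa at 0.223, while Fcgr2b, with its wide spread, was at 1.03. Between pairs of the 10, C1qa and Fcer1g had the smallest difference (0.138), then Csf1r and Lcp1 (0.172) and C1qa and C1qc (0.182). All profiles share the step between sham and SNL arrays, and the size of that step enters these values.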

How the data were processed

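The deposited intensity values are linear, 15923 probe sets by 12 arrays, between 0 and 13930.7. The submitters' processing notes name RMA alone, without a version. With the lowest and highest 2% of values left out, the mean of every array is 500.1, as array-wide scaling would give, and how the authors reached these values is not given in the sources used here. Array medians lay between 278.4 and 313.2, and 3 arrays per group limit the precision.

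Probe sets were named through the platform annotation, with 12748 symbols updated by gene identifier and 2 by accession from RefSeq (GRCr8) and 33 kept. In all 12783 had 1 symbol, 312 had several and 2771 had none, with 57 controls apart. The probe set with the highest mean stood for a gene. Log2(signal + 1) entered 1 fit of 4 group means in limma 3.58.1 (R 4.3.3, statmod 1.5.0; 8 residual and 2.05 prior degrees of freedom), two-sided, and the fit was tested on simulated data. The macrophage genes and the lists were chosen with earlier results of these data known. Named genes are the 10 macrophage genes, the 3 genes of each list with the smallest p for ligation averaged over the lines, the 6 nearest profiles, and Ptprc, Itgam, Cx3cr1, Aif1, Cd163 and Mrc1. Alternatives covered the replicate block, a filter on dim genes, 2 normalizations, pseudocounts of 16 and 32, the variance prior, the arrays fitted, the probe set rule, the actin ratio and leaving out each array.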

Additional observations from a re-analysis of the deposited data

How the results depend on the processing

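The rise after ligation kept its direction for every macrophage gene under every alternative tried, and its call except for Fcgr2b, which lost it in 4 alternatives in HP and 5 in LP, the fifth being the fit of the LP arrays alone (adjusted p = 0.0746). Fcgr2b was not tested once the dimmest 25% of genes were left out, and its LP difference reached 3.96 without LP sham replicate 3. The replicate numbers were not treated as pairs. Same-numbered arrays of different groups had correlations of deviations between -0.158 and 0.098, and differently numbered ones between -0.152 and 0.213. With 3 arrays a group these values cannot show whether the numbers pair the samples. With the replicate block all 10 macrophage genes still rose in each line, and the count of all genes past the threshold was 1115 in HP and 1251 in LP, against 1419 and 1504 without it. It was 816 in HP with the actin covariate, 814 in LP with the LP arrays alone, and 846 to 1489 (HP) and 1028 to 1451 (LP) with an array left out. Among the HP counts, 846 is without HP sham replicate 1, 866 without HP sham replicate 3, 945 without HP SNL replicate 2 and 875 without HP SNL replicate 3.

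Between the lines no macrophage gene passed under any alternative. For LP minus HP after SNL, 18 genes of all passed, and 7 with the replicate block, 39 without dim genes, 29 with a pseudocount of 32, 52 with trended and robust variance, 4 with only the arrays compared, 11 with the mean of probe sets, 9 with the actin covariate and 1 to 26 with an array left out. After sham 1 gene passed, and 0 with the replicate block, quantile normalization, median centring, only the arrays compared or the mean of probe sets, 5 without dim genes, 2 with a pseudocount of 32, 6 with trended variance, 7 with every probe set, 3 with the actin covariate and 0 to 3 with an array left out. For the interaction it was 0, and 1 with the actin covariate and 0 to 2 with an array left out. Small differences changed sign. After SNL, Cd14 had -0.008 under median centring and Gpnmb -0.010 with the actin covariate. With an array left out the ranges were -0.082 to 0.125 (Cd14), -0.088 to 0.196 (Gpnmb), -0.034 to 0.154 (Lcp1) and -0.034 to 0.111 (Csf1r). The interaction of Fcgr2b was -0.065 after quantile normalization, -0.309 and -0.447 with pseudocounts of 16 and 32 and -0.610 to 1.001 with an array left out. That of C1qc was 0.068 with the actin covariate and -0.196 to 0.062 with an array left out, and that of Cd68 -0.007 to 0.499. The fit of only the arrays compared gives no value for the averaged contrast or the interaction. The cause of these changes was not tested.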
